A study of Mus musculus with 24 samples.

Results

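Simulated microgravity was compared with the 2g position in osteocyte-like cells that had received a control antibody, on 6 of the 24 arrays of the series. The 6 arrays were chosen by their titles: 3 from the ug position and 3 from the 2g position, all of MLO-Y4 cells, a mouse line with osteocyte features. Every dish had received an irrelevant rabbit IgG at a 1:50 dilution for 30 min at 37 °C in 5% CO2, and was then kept at a set position on a platform under a strong magnetic and gravity-altering field. The remaining arrays hold the same cells at the 1g position or in an incubator (C), and the same 4 environments after an antibody, Cx43(E2), that blocks connexin 43 hemichannels (the E2 arm). The ug and 2g arrays that share a title number form a pair. The 3 pairs are given apart because pair 2 ran against the others in a small group of genes. In that pair the array labelled 2g, and not the one labelled ug, carried the high levels of genes such as Gem that were high at ug elsewhere. No label gives the time on the platform or the field at each position, or says that equal numbers mark 1 culture.

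Such platforms stand in the bore of a strong magnet, where the field gradient pulls on the water of a cell. Above the centre that pull opposes weight and below it adds to weight, so that ug and 2g are the opposed ends of the apparatus and both differ from the incubator by a magnetic field. Osteocytes are the cells embedded in bone that sense load. Cells of this kind answer mechanical or chemical stimuli within minutes by transcribing immediate early genes, among them the AP-1 factors Fos and Fosb, the zinc finger factor Egr1 and the orphan nuclear receptor Nr4a1.

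The values are log2 intensities, with array medians between 6.55 and 6.605 on the 6 arrays, and 14489 genes were tested. The number of arrays limits the precision. Of 12 osteocyte markers on the array, 9 lay above the 40th percentile of every one of the 6 arrays, such as Pdpn (12.69 to 12.80), Fgf23 and Gja1. Markers of several other cell types passed about as often, among them 7 of 9 adipocyte, 7 of 10 muscle, 7 of 11 endothelial and 6 of 9 epithelial markers. This count does not set the cells apart from those types. Fewer macrophage and osteoclast markers (7 of 14) and lymphocyte markers (3 of 9) passed. The other osteocyte markers, Dmp1, Mepe and Phex, lay below the 40th percentile on all 6 arrays, while Sost (6.954 to 7.175) lay above it. Summed levels of 9 lists of cell type markers overlapped between ug and 2g in every case. That of the osteocyte list was 14.56 to 14.63 at 2g and 14.55 to 14.59 at ug, and that of macrophage and osteoclast markers 11.57 to 12.44 and 11.69 to 12.32.

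Gem, a small GTPase of the RGK family that restrains voltage-gated calcium channels and is itself induced early after stimulation, differed most. Its level (probe set 10503334) was 8.29 at ug against 6.05 at 2g in pair 1, 5.97 against 8.70 in pair 2, and 10.50 against 6.72 in pair 3. The incubator and 1g arrays of the same numbers lay between 5.999 and 6.80. In each pair, therefore, 1 array was high and the other was near the levels of the incubator and 1g: the ug array in pairs 1 and 3, and the array labelled 2g in pair 2. Both groups overlap. The mean difference was 1.10 ± 0.75 on the log2 scale (limma's SE, n = 3 per group). Limma's test, adjusted over all genes, gave an adjusted p of 1. Each SE given here, and its p-value, rests on a spread pooled over all 8 groups of arrays and moderated over genes. Gem varied less on the incubator and 1g arrays than at ug and 2g. Its SE is therefore smaller than the 6 compared arrays alone would give. In bulk RNA, a lower share of cells with a transcript and less of it per cell cannot be told apart.

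Fosb, an AP-1 subunit, showed the same arrangement (10560481). It stood at 7.88, 7.29 and 9.24 at ug in pairs 1, 2 and 3, against 7.44, 8.22 and 7.65 at 2g. Egr1 (10454782) stood at 9.71, 9.11 and 10.62 at ug against 8.99, 9.89 and 9.48 at 2g. Nr4a1 (10427035) stood at 9.65, 9.07 and 11.10 at ug against 9.55, 10.23 and 9.38 at 2g, so that pair 1 showed little difference. For all 3 genes the highest of the 6 arrays was ug of pair 3, and in pair 2 the array labelled 2g was the higher one. Ppp1r15a, whose product helps to restart protein synthesis after stress (10563338), stood at 9.04, 8.25 and 9.56 at ug against 8.28, 9.36 and 8.40 at 2g.

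**Figure D1:**
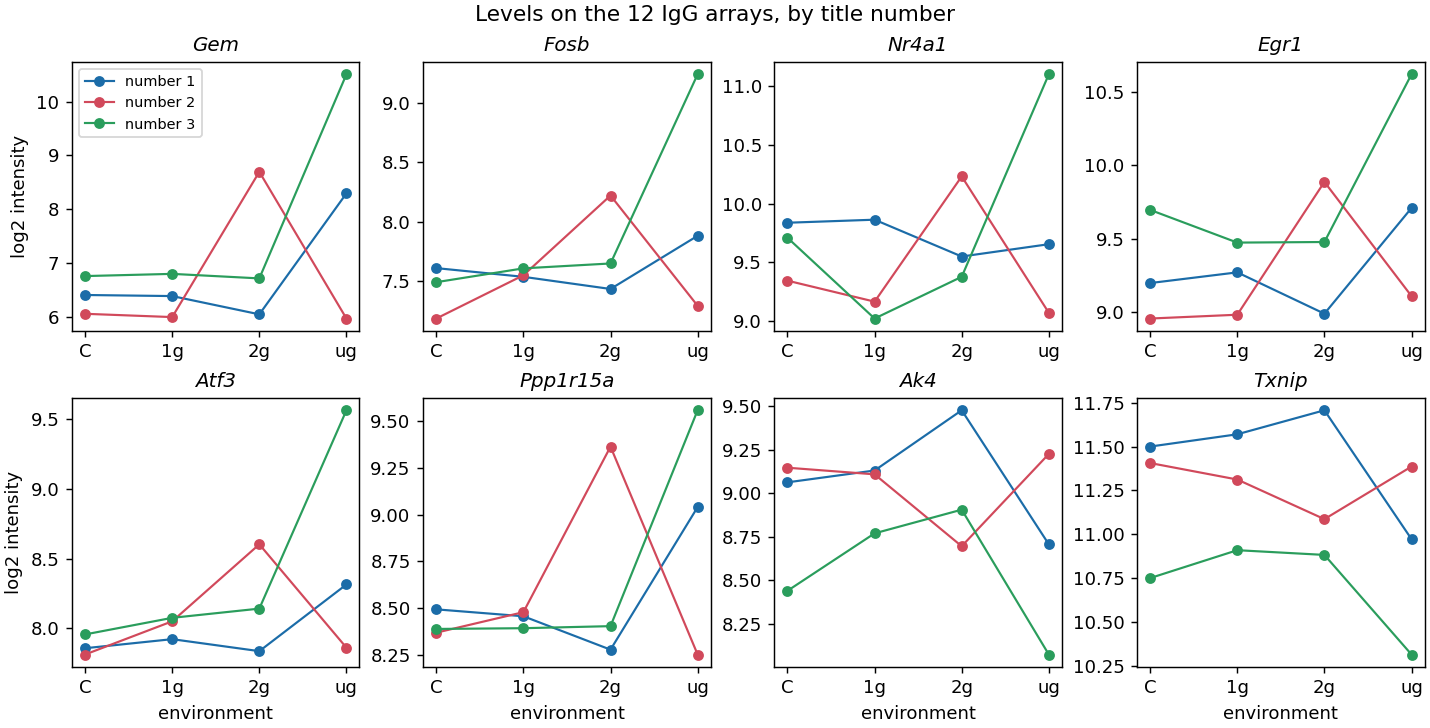
Log2 intensity of 8 genes on the 12 IgG arrays, by environment (incubator C, 1g, 2g and ug), with a line for each title number and a point for each array. For Gem, Fosb, Nr4a1, Egr1, Atf3 and Ppp1r15a, number 3 peaks at ug and number 2 at 2g, while Ak4 and Txnip are low on those arrays.

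The upstream sequences of 3 of these genes are shown as examples of windows with 2 or more matches to a motif, and were chosen after the matches had been counted. Each is the RefSeq window from 250 bases before to 50 bases after the gene's start (build GRCm38.p6), 5′ to 3′ on the gene's strand. Capitals mark TGACG or its reverse complement CGTCA, the core of the cyclic AMP response element. The windows lie at chr15:101266596-101266895 (plus strand) for Nr4a1, chr12:85473640-85473939 (plus strand) for Fos and chr7:45526219-45526518 (minus strand) for Ppp1r15a.
Nr4a1: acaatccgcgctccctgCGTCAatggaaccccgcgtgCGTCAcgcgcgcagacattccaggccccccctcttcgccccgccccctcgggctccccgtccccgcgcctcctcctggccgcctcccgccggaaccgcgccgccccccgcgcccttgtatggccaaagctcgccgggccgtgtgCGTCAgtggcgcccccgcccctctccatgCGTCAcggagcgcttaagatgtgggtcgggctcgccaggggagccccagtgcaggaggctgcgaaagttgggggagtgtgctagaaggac
Fos: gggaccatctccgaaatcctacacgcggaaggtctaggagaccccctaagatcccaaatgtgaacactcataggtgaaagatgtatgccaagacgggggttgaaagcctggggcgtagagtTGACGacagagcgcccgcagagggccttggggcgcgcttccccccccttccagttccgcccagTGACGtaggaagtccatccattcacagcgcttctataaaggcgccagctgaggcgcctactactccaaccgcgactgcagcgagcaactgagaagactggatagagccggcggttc
Ppp1r15a: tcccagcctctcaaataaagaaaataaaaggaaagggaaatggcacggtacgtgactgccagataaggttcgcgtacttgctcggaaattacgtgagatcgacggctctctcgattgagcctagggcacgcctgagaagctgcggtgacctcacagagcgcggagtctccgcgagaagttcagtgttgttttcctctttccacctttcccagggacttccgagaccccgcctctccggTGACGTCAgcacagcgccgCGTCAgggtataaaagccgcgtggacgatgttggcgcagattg
The window of Nr4a1 holds 4 matches, that of Fos 2, and that of Ppp1r15a 3, of which 2 overlap in the full palindrome TGACGTCA. Of all 32851 windows of 300 bases, 20.8% hold at least 1 match on either strand, 5.01% at least 2 and 1.79% the palindrome. Among 21 genes, those at least 1.5-fold lower at ug in pair 2 together with Fos and A3galt2, 15 had a window in the table. Gem and Egr1 had none. Of the 15, 9 had a match in at least 1 of their windows. That count is per gene and some genes had several windows, so it is not on the same footing as the shares per window. Genes of the same pattern whose windows are not shown held 2 matches (Plk3), 1 match (Fosb and Atf3) or 0 (Slco4a1 and Tnf). A match describes letters in a window and no binding was measured.

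Over all genes, limma called 0 genes between ug and 2g (0% of 14489, adjusted p below 0.05, smallest adjusted p = 0.99997), with 103 genes (0.711%) at an unadjusted p below 0.05. With the pair as a block 0 genes were called as well, and 269 (1.86%) had an unadjusted p below 0.05. The median standard error of a difference was 0.103 without the block and 0.0821 with it. The p-values reflect array-to-array spread alone, because the labels do not state that replicates came from separate cultures. Number 3 differed from numbers 1 and 2 more widely than the positions differed from each other. At ug, 447 genes differed by 1.5-fold or more between numbers 3 and 1 and 447 between numbers 3 and 2, but 27 between numbers 2 and 1. At 2g the same counts were 339, 384 and 45. Between ug and 2g the counts were 40, 27 and 64 in pairs 1, 2 and 3 (0.276%, 0.186% and 0.442% of genes).

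The 3 pairs did not share a common pattern over genes. Across 14489 genes, Pearson's r between the differences of pair 1 and pair 2 was -0.00414, between pairs 1 and 3 -0.00989, and between pairs 2 and 3 -0.276. No array enters more than 1 pair, and genes are not independent replicates. In 1470 genes (10.1%) all 3 pairs were higher at ug and in 1315 (9.08%) all 3 were lower. Pair 2 was opposite to both other pairs in 3650 genes (25.2%). Over all genes it was no more opposed to pair 1 than pair 3 was. Of 260 genes at least 1.3-fold higher at ug in pair 1, 156 were higher in pair 2 and 121 in pair 3.

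**Figure D2:**
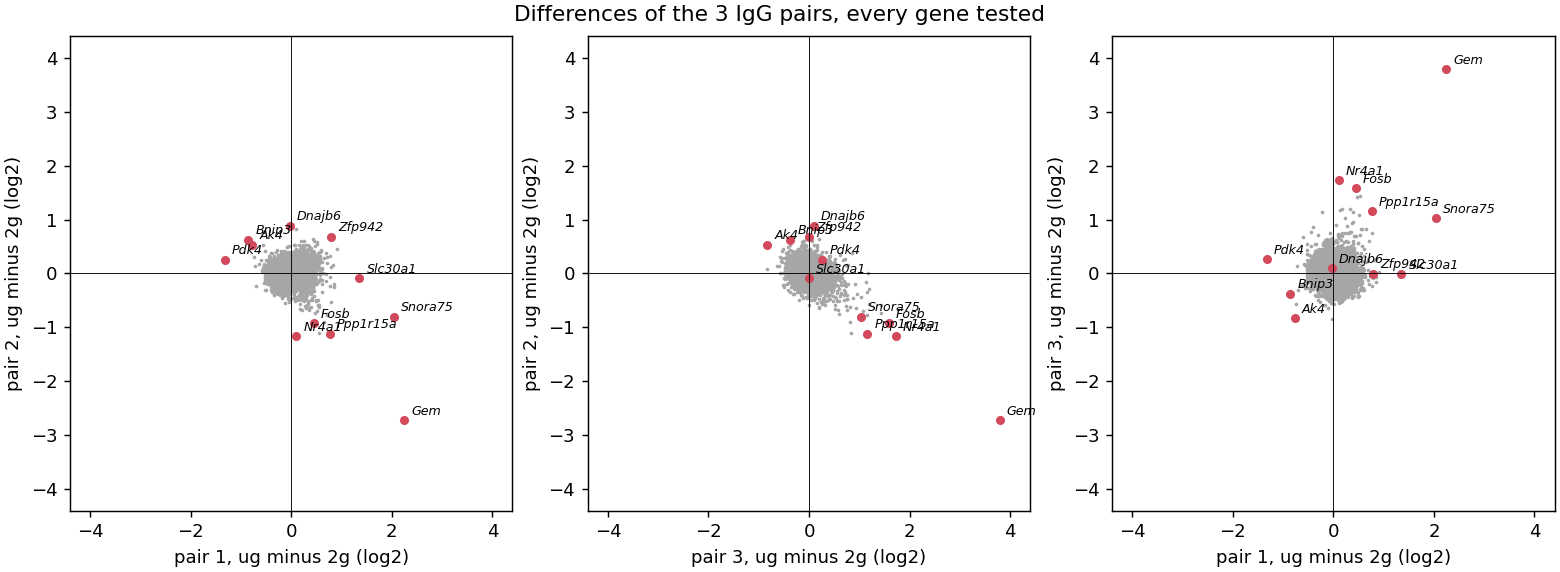
Difference between ug and 2g (log2) of each gene in one pair against another, for the 3 combinations of pairs; grey points are the 14489 genes and red points are named genes. Gem lies at the lower right in both plots against pair 2 and at the upper right in the plot of pair 3 against pair 1.

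In pair 1, 32 genes were at least 1.5-fold higher at ug (0.221%) and 8 lower (0.0552%). With 1 array a side these are descriptions, without a test. The 5 largest excesses were Gem (2.25), the small nucleolar RNA Snora75 (10356329, 2.04), the zinc exporter Slc30a1 (10352777, 1.35), the zinc finger gene Zfp729b (10410351, 0.91) and Fnip1, a partner of folliculin (10376144, 0.85). For Slc30a1 pairs 2 and 3 gave -0.08 and -0.01. The 5 largest deficits were Pdk4, a kinase that shuts off pyruvate dehydrogenase (10543017, -1.32), the mitophagy receptor Bnip3 (10414269, -0.86), the mitochondrial adenylate kinase Ak4 (10472923, -0.77), the thioredoxin inhibitor Txnip (10494428, -0.73) and Nkx2-9 (10400479, -0.73). Pdk4 was 10.58 at 2g and 9.26 at ug in this pair, and the incubator and 1g arrays of number 1 were at 10.23 and 10.07.

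In pair 3, 60 genes were at least 1.5-fold higher at ug (0.414%) and 4 lower (0.0276%). The largest excesses were Gem (3.79), Nr4a1 (1.73), Fosb (1.59), Fos (10397346, 1.44) and the stress-induced transcription factor gene Atf3 (10361091, 1.42). Fos stood at 8.64 at ug and 7.20 at 2g, and Atf3 at 9.56 and 8.14. The largest deficits were Syne2, which encodes a nuclear envelope protein that binds actin (10396608, -0.83), Ak4 (-0.83), Uba1y (10607962, -0.64), Amer1, a regulator of Wnt signalling (10605811, -0.59) and the lipid-sensing nuclear receptor Ppara (10425987, -0.57). Of the 60 genes higher at ug in pair 3, 45 were higher in pair 1 (median 0.20) and 10 in pair 2 (median -0.35).

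In pair 2, 8 genes were at least 1.5-fold higher at ug (0.0552%) and 19 lower (0.131%). The largest deficits were Gem (-2.72), Nr4a1 (-1.16), Ppp1r15a (-1.11), Nup210l, a relative of a nuclear pore protein (10493662, -1.10), and Fosb (-0.93). All 19 genes that were lower at ug in pair 2 were higher at ug in pair 1 (median 0.48) and in pair 3 (median 0.83). These 19 were picked on pair 2 alone, after the data were seen. The largest excesses were the co-chaperone Dnajb6 (10520445, 0.89), the nucleosome-binding Hmgn5 (10606436, 0.83), Zfp942 (10448195, 0.68), Zfp458 (10410287, 0.64) and Bnip3 (0.62). Dnajb6 stood at 6.12 at ug and 5.23 at 2g in pair 2, and between 5.77 and 5.87 on the 4 ug and 2g arrays of the other pairs. Apart from the 6.12, these values lay below the arrays' 40th percentile (5.96 to 6.02). What low intensity contributes to this difference was not tested.

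The genes in which pair 2 most clearly opposed pairs 1 and 3 were chosen 5 in each direction. Gem, Snora75, Ppp1r15a, Egr1 and the organic anion transporter Slco4a1 (10479379) were higher at ug in pairs 1 and 3 and lower in pair 2. Slco4a1 stood at 9.03, 8.37 and 9.88 at ug against 8.38, 9.26 and 9.06 at 2g. Ak4, Bnip3, Txnip, Olfml2a (10471882) and Zfp112 (10550840) went the other way. Ak4 stood at 8.71, 9.23 and 8.07 at ug against 9.48, 8.70 and 8.91 at 2g, and Txnip at 10.97, 11.39 and 10.31 against 11.71, 11.09 and 10.88. In both genes the array labelled 2g of pair 2 was lower than its ug partner, and the groups overlap.

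The E2 arm gave a choice of genes that uses none of the IgG arrays. There, 7 genes were at least 1.5-fold higher at ug than at 2g in all 3 pairs: Gem, Nr4a1, Fosb, Fos, Atf3, Egr1 and A3galt2, a glycosyltransferase gene (10508368) named after its values were seen. In the IgG arm all 7 were higher at ug in pair 1 (0.11 to 2.25, median 0.48) and in pair 3 (1.14 to 3.79, median 1.44). In pair 2 all 7 were lower (-2.72 to -0.57, median -0.78). Of all genes, 59.0%, 54.0% and 41.0% were higher at ug in pairs 1, 2 and 3. A single gene, Ak4, was at least 1.5-fold lower at ug in all 3 E2 pairs, and it was lower in IgG pairs 1 and 3 and higher in pair 2.

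The E2 pairs themselves agreed in sign for Gem, which was higher at ug by 1.98, 3.65 and 2.82. Pearson's r over all genes between the difference of IgG pair 2 and those of the E2 pairs was -0.051, -0.285 and -0.305. For IgG pair 3 it was 0.384, 0.312 and 0.215, and for IgG pair 1 -0.1, 0.305 and 0.148. No array is shared in these correlations. The labels offer no position marker that could settle which of the 2 arrays of pair 2 came from which position, so the arrays are kept as labelled throughout. Without pair 2, 6966 of all 14489 genes were higher at ug (median -0.00398), and the gene lists are given with and without it.

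**Figure D3:**
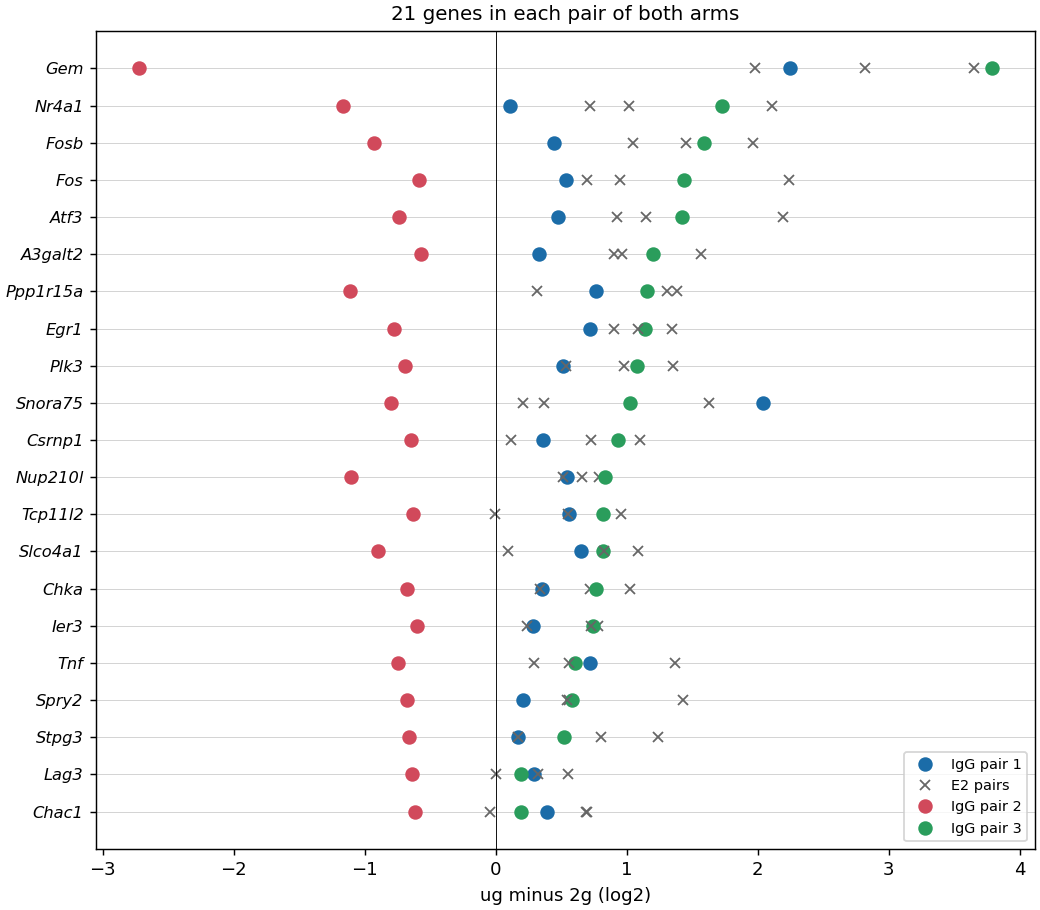
Difference between ug and 2g (log2) in each IgG pair (coloured points) and each E2 pair (crosses) for 21 genes: the 19 that were at least 1.5-fold lower at ug in IgG pair 2, with Fos and A3galt2. IgG pair 2 lies below 0 for every gene shown, and IgG pairs 1 and 3 lie above 0 for every gene shown.

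Without pair 2 limma called 0 genes when no block was used (178 at an unadjusted p below 0.05, 1.23%, and 127, 0.877%, without pair 3). Gem then differed by 3.02 ± 0.55 (limma's pooled SE, n = 2 per group, limma adjusted p = 0.505), and Ppp1r15a by 0.96 ± 0.21 (adjusted p = 1). Another fit, added after the data were seen, left pair 2 out and took each title number of an arm as a block. Limma then called 2 genes (0.0138%), with 489 (3.37%) at an unadjusted p below 0.05. Gem was higher at ug (3.02 ± 0.36, limma adjusted p = 7.37e-04). Txnip, an inhibitor of thioredoxin that also limits glucose uptake, was lower (-0.65 ± 0.08, limma adjusted p = 7.37e-04). Both are among the genes in which pair 2 most opposed the others, and pair 2 was left out for that opposition. Their p-values therefore rest on values that guided the choice and are no independent test. Leaving out pair 1 or pair 3 in the same way called 0 genes each, with 210 (1.45%) and 318 (2.19%) at an unadjusted p below 0.05. Gem's mean difference was 0.53 without pair 1 and -0.24 without pair 3.

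The 3 ug arrays lay above the 3 2g arrays in 297 genes (2.05%) and below them in 371 (2.56%), so that 44.5% of the 668 genes without overlap (4.61%) were higher at ug. After quantile normalization that share was 30.7%, with 248 higher and 561 lower, and with no filter on dim probe sets it was 51%, with 599 higher and 576 lower. The 20 genes named here had the smallest unadjusted p among them, and none was called. Gm13884 (10474241) was 7.08, 7.13 and 7.07 at ug against 7.36, 7.38 and 7.35 at 2g, a difference of -0.27 ± 0.08 with 3 nearly equal pairs. Myorg, a glycosidase gene (10512251), was 6.55, 6.497 and 6.40 at ug against 6.75, 6.88 and 6.69 at 2g. Myh10, the heavy chain of a nonmuscle myosin (10377319), was 6.01, 6.23 and 6.14 against 6.45, 6.28 and 6.33.

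Others lower at ug on every array were the dicarboxylate transporter Slc13a3 (10489705, -0.21 ± 0.07), the hedgehog ligand Dhh (10432372, -0.25 ± 0.09), Lhfpl3 (10520043, -0.25 ± 0.09), Mir670hg, Olfr1510 (10419717, -0.34 ± 0.12), Ccnjl and Epp13. Zfp458, a zinc finger gene, led those higher at ug: 6.16, 6.04 and 6.02 at ug against 5.73, 5.40 and 5.81 at 2g (0.42 ± 0.13). Others higher at ug were Olfr656 (10555879, 0.24 ± 0.09), Edar, the receptor of ectodysplasin (10369236, 0.22 ± 0.08), Atp6v0a4, a subunit of the vacuolar proton pump (10544036, 0.20 ± 0.07), and the potassium channel gene Kcna2 (10495193, 0.19 ± 0.08). The other 5 were Hoxc5, Pyurf and the small nucleolar RNAs Snord53, Snord49b and Snora73a. Genes chosen for a lack of overlap cannot change sign when a pair is left out. Without pair 2 the 20 differences ran from -0.36 (Olfr1510) to -0.19 (Mir670hg and Epp13) and from 0.05 (Hoxc5) to 0.43 (Snord53). Limma's adjusted p without pair 2 was 1 for each. Unadjusted p for the 20 genes lay between 0.00394 and 0.0314. Of the 20, 15 had mean levels under 7, where the median gene tested stood at 8.41, and the arrays' 40th percentile lay near 6 (5.96 to 6.02). What low intensity contributes to these differences was not tested.

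**Figure D4:**
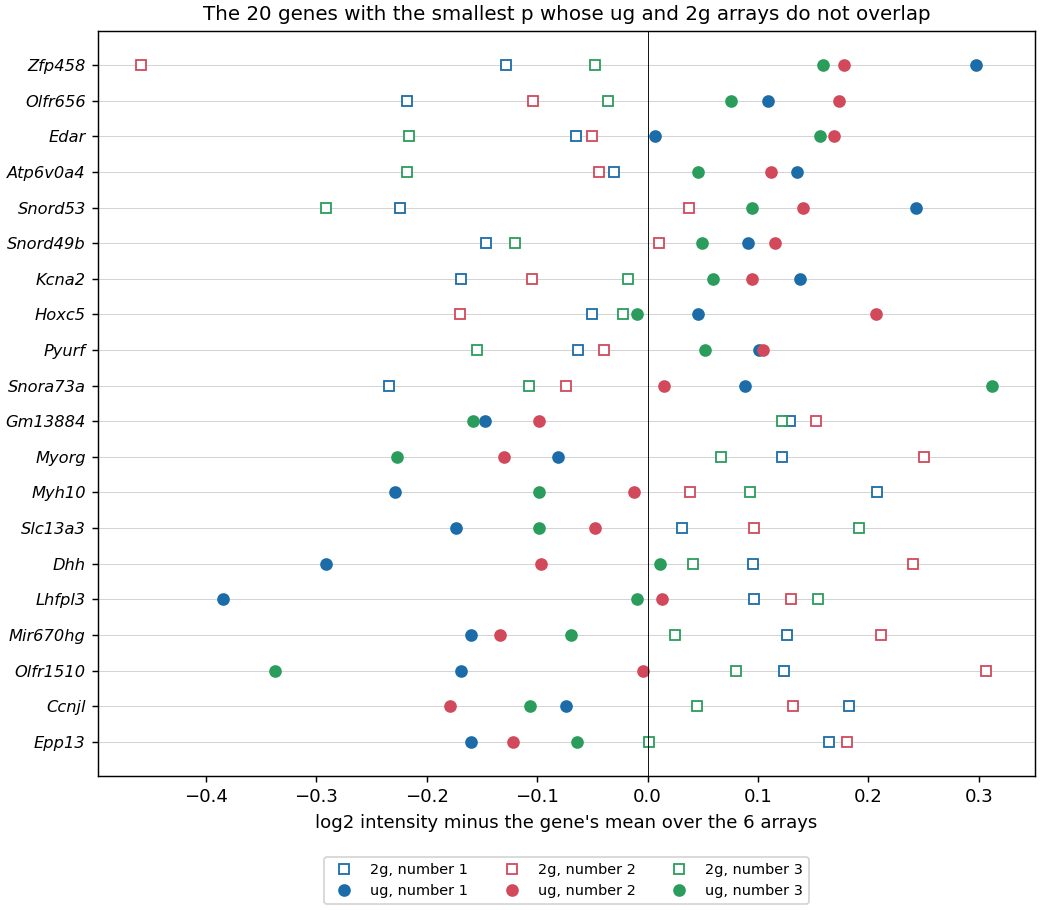
Log2 intensity minus the gene's mean over the 6 arrays for 20 genes; filled circles are ug arrays, open squares are 2g arrays, and colours mark the title number. In each row all circles lie on one side of all squares, and most values lie within 0.3 of the mean.

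Small nucleolar and Cajal body RNAs, which guide the chemical modification of ribosomal and spliceosomal RNA and are mostly cut from introns, were higher at ug in the mean. This list was added after the data were seen. By the mean of the pairs 50 of 54 were higher at ug (median 0.15), against 7291 of all 14489 genes (median 0.000573). The counts were 51 of 54 in pair 1 (median 0.24), 28 in pair 2 (median 0.02) and 46 in pair 3 (median 0.20), and without pair 2 48 of 54 were higher (median 0.23). In 15 of the 54 the ug arrays lay above all 2g arrays, and in 0 below, where the background is 2.05% and 2.56%. Snord53 (10446713) was 10.60, 10.50 and 10.45 at ug against 10.14, 10.40 and 10.07 at 2g, a difference of 0.32 ± 0.12 on the log2 scale (limma adjusted p = 1). Snord49b (10376885) was 12.17, 12.20 and 12.13 against 11.94, 12.10 and 11.96, and Snora73a (10516908) 10.65, 10.58 and 10.87 against 10.33, 10.49 and 10.45. In all 3 the groups did not overlap and pair 2 had the smallest difference. In the E2 pairs the list's medians were 0.09, -0.09 and 0.13.

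The immediate early genes followed Gem. Of 29 measured, 20 were higher at ug in pair 1 (median 0.18), 5 in pair 2 (median -0.20) and 22 in pair 3 (median 0.27). In 17 of the 29 pair 2 opposed both other pairs, which was so for 25.2% of all genes. Over the 3 pairs 22 were higher (median 0.10), none was called and none had an unadjusted p below 0.05. Without pair 2, 24 of 29 were higher (median 0.24). Pair 2 was left out for its opposition in such genes, so that count is no independent test. Arc, an early gene best known from neurons (10429491), was 0.39, -0.37 and 0.96 in pairs 1, 2 and 3. Ier5 (10358978) was 0.29, -0.20 and 0.47, and Zfp36, which promotes decay of cytokine messengers (10561453), was 0.36, -0.20 and 0.52.

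Genes that damp MAP kinase signalling, the dual-specificity phosphatases and Sprouty proteins, gave medians of 0.08, -0.14 and 0.10 over 15 genes. By the mean 9 of 15 were higher at ug, and 11 without pair 2 (median 0.06). Dusp1, a phosphatase induced together with the early genes (10449284), was 11.37, 11.06 and 12.11 at ug against 11.15, 11.54 and 11.35 at 2g. Dusp2 (10475782) differed by 0.09, -0.14 and 0.70. The other measured RGK genes did not share Gem's pattern: Rrad (10581151) differed by -0.04, 0.02 and 0.06, and Rem2 (10415074) by 0.25, 0.48 and -0.09. Of the p53 targets Gadd45g (10405211) was 9.13, 8.95 and 9.40 at ug against 8.61, 9.12 and 8.68 at 2g (mean difference 0.36 ± 0.17, unadjusted p = 0.0475, limma adjusted p = 1). Gadd45b (10364950) differed by 0.43, -0.31 and 0.70, and the kinase gene Plk3 (10515399) by 0.51, -0.69 and 1.08. The 19 p53 targets that hold these 3 genes did not follow them: 13, 12 and 9 were higher at ug in pairs 1, 2 and 3 (medians 0.08, 0.02 and -0.03), and 12 without pair 2 (median 0.08).

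Among 20 cytokines and chemokines the medians were -0.01, -0.07 and 0.06, and none was called. By the mean 11 were higher at ug, and 14 without pair 2 (median 0.03). Tnf (10450501) followed Gem at 8.73, 8.15 and 8.99 at ug against 8.01, 8.89 and 8.39 at 2g. Il1a, the gene of interleukin 1 alpha (10487588), did not: it was 7.46, 7.21 and 7.69 at ug against 8.16, 7.45 and 7.99 at 2g, lower in each pair by 0.70, 0.23 or 0.30, although the groups overlap between pairs (-0.41 ± 0.27, unadjusted p = 0.142). Of 9 genes of prostaglandin synthesis and reception, none had an unadjusted p below 0.05, and 7 were higher by the mean (median 0.00 to 2 decimals) and 6 without pair 2 (median 0.02).

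Hypoxia and glycolysis genes leaned the other way from the early genes by the mean of the pairs. Of 25 measured, 20 were lower at ug by the mean (median -0.04), with 9, 16 and 8 higher in pairs 1, 2 and 3. Of all genes, 59%, 54% and 41% were higher in these pairs. In pair 3 the list's median of -0.04 was no lower than that of all genes at or above the median level (-0.05). Without pair 2, 5 of 25 were higher (median -0.05). In 13 of the 25 pair 2 opposed both other pairs, against 25.2% of all genes. Besides Bnip3, Pfkl, the liver-type phosphofructokinase (10370376), differed by -0.41, 0.24 and -0.23, and the collagen prolyl hydroxylase gene P4ha1 (10363350) by -0.29, 0.13 and -0.23. Pair 2 alone was higher at ug in all 3. Cholesterol synthesis genes differed mostly in pair 1, where 16 of 18 were higher (median 0.20). In pair 2 only 3 were higher (median -0.08) and in pair 3 9 of 18 were (median 0.01). Without pair 2, 17 of 18 were higher (median 0.08), against 14 with it (median 0.04). Insig1, a sterol-controlled brake on the pathway (10520362), was 10.33, 10.11 and 11.30 at ug against 9.80, 10.60 and 11.02 at 2g.

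Collagens and matrix genes were lower at ug by the mean in 28 of 31 (median -0.06, none called) and in 27 without pair 2 (median -0.07). In 10 of the 31 all 3 pairs were lower, against 9.08% of all genes, and in 3 of 31 the ug arrays lay below all 2g arrays, against 2.56% of all genes. Tenascin C, Tnc (10513739), was 10.27, 10.30 and 10.37 at ug against 10.49, 10.40 and 10.64 at 2g. The gelatinase gene Mmp2 (10573924) was 12.79, 12.77 and 12.75 against 12.80, 12.88 and 12.86, and Col4a2 (10570068) 8.31, 8.27 and 8.30 against 8.32, 8.41 and 8.45. Col3a1 (10346015), named after its values were seen, differed by -0.25, -0.20 and -0.30, but its level was 7.93 to 8.21 in numbers 1 and 2 and 8.86 to 9.16 in number 3, so the groups overlap. The list's median was lowest in pair 3, at -0.14, against -0.01 in pair 1 and -0.04 in pair 2. In pair 3 brighter genes as a whole had a median of -0.05.

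Subunits of oxidative phosphorylation were higher at ug by the mean in 26 of 33 (median 0.03, none called), and in 24 without pair 2 (median 0.04), and 9 of 33 were higher in all 3 pairs. In 4 of the 33 the ug arrays lay above all 2g arrays and in 1 below, against 2.05% and 2.56% of all genes. Ndufa4 (10543134) was 11.34, 11.18 and 11.35 at ug against 11.14, 11.11 and 11.11 at 2g (0.17 ± 0.08, unadjusted p = 0.0488, limma adjusted p = 1). Ndufa1 (10604100) was 8.46, 8.36 and 8.31 against 8.21, 8.25 and 7.995, and Ndufb3 (10346544) 7.55, 7.62 and 7.58 against 7.47, 7.22 and 7.32. Their differences did not turn in pair 2. Cytosolic ribosomal proteins were higher in 13 of 18 (median 0.03), with pair medians of 0.03, 0.00 and 0.02, and in 13 without pair 2 (median 0.04).

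Genes of the unfolded protein response were lower in 18 of 24 with pair 2 (median -0.04), and 6 of 24 were higher without it (median -0.06). Sel1l, which retrieves misfolded proteins from the endoplasmic reticulum (10401900), was 10.58, 10.54 and 10.40 at ug against 10.61, 10.61 and 10.68 at 2g, without overlap (-0.12 ± 0.06, unadjusted p = 0.068). Heat shock proteins were higher in 11 of 17 with and without pair 2 (medians 0.04 and 0.03). Hspa4l (10491780) differed by 0.31, 0.11 and 0.31, and Hspa1a (10450369) by -0.16, 0.14 and 0.41. Interferon response genes were higher in 3 of 16 (median -0.05), and in 1 without pair 2 (median -0.03). In pair 3 1 of 16 was higher (median -0.15), against 14 of 16 in pair 1 (median 0.04). Of all genes, 41% were higher in pair 3 and 59% in pair 1. Brighter genes as a whole had medians of -0.05 and 0.05 in these pairs. RNA-binding and splicing genes that respond to temperature were higher in 10 of 10 by the mean (median 0.06) and in 9 without pair 2 (median 0.03). Of them Clk4, a kinase of splicing factors (10375820), was 8.35, 8.08 and 8.43 at ug against 8.02, 8.13 and 7.93 at 2g, and again only pair 2 was lower.

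**Figure D5:**
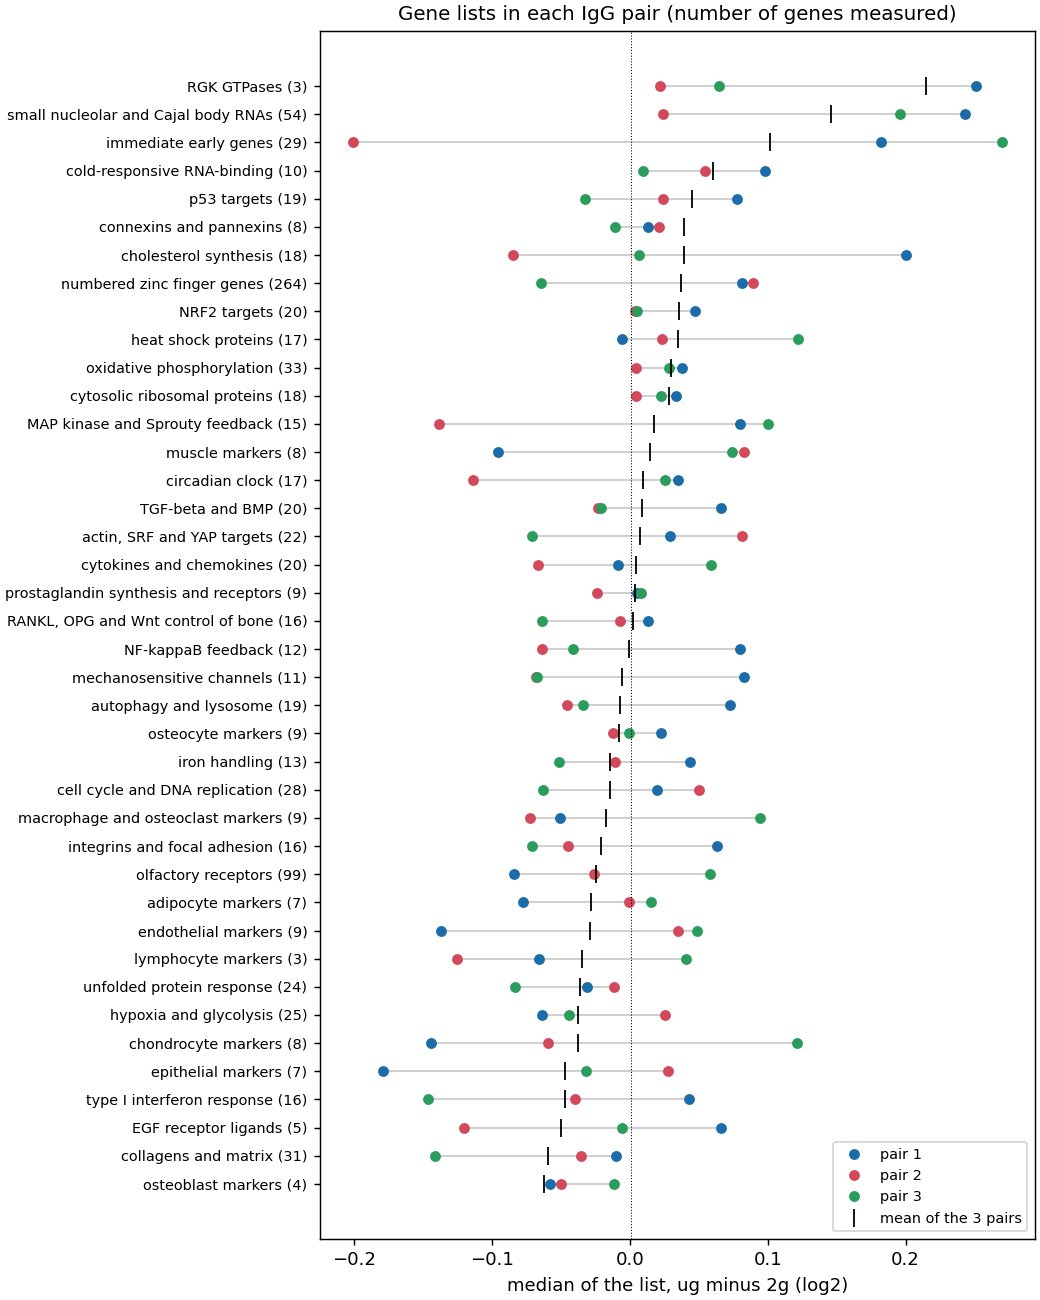
Median difference between ug and 2g (log2) of each gene list in pairs 1, 2 and 3 (coloured points) and of the mean of the pairs (black bar), with the number of genes measured; the dotted line is the median of all genes tested. Immediate early genes and MAP kinase feedback genes have pair 2 on the left and pairs 1 and 3 on the right.

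Bone-related genes showed small differences. Gja1, the gene of connexin 43 (10363173), was 11.57, 11.50 and 11.84 at ug against 11.54, 11.48 and 12 at 2g (-0.03 ± 0.18, limma adjusted p = 1). Number 3 was the highest at both positions. Among 8 connexins and pannexins only Gja3 (10420359) had no overlap (-0.08 ± 0.08), where 4.61% of all genes had none. Of these 8, 5 were higher at ug by the mean, and 5 without pair 2. Of 16 genes of RANKL, OPG and Wnt control 8 were higher and 8 lower, and 6 were higher without pair 2 (median -0.01). Tnfrsf11b, which encodes the RANKL decoy OPG (10428604), differed by -0.29, 0.00 and -0.08, and the Wnt antagonist Wif1 (10366653) by -0.19, -0.08 and -0.14. Mechanosensitive channels were higher in 9 of 11 in pair 1 and in 3 of 11 in each of pairs 2 and 3, and none was called. By the mean 4 were higher (median -0.01), and 7 without pair 2 (median 0.03).

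Whether the difference between ug and 2g itself depended on the antibody was tested as an interaction in the same fit. Limma called 0 genes (0%), with 167 (1.15%) at an unadjusted p below 0.05, and the E2 arm's own comparison also had 0 genes called, with 553 (3.82%) at an unadjusted p below 0.05. Gem's difference in the IgG arm minus that in the E2 arm was -1.71 ± 1.06 with all pairs (unadjusted p = 0.121, adjusted p = 1) and 0.20 ± 0.71 without IgG pair 2 (unadjusted p = 0.783). For Atf3 these values were -1.04 ± 0.44 (unadjusted p = 0.03) and -0.47 ± 0.42 (unadjusted p = 0.279), and for Fosb -1.12 ± 0.50 (unadjusted p = 0.0378) and -0.47 ± 0.48 (unadjusted p = 0.333). A p that misses the threshold does not show that the arms act alike. The smallest p-values of the interaction belonged to Lrrc38, Fgf18, Fgf4, Olfr1510 and Myt1l (lower in IgG) and to Zfp458, Zfp11, Gtf2e2, Cbll1 and Gm5464 (higher in IgG), with unadjusted p between 0.00169 and 0.00727 and an adjusted p of 1 for each.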

How the data were processed

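RNA from MLO-Y4 cells was measured on 24 arrays, 3 in each of 8 groups, and the groups were read from sample titles. The deposited values are log2 intensities, 1 column per array, as judged from the values. MAS5 is the tool named by the submitters' processing notes, which give it neither a role nor a version. How the arrays were scaled to one another is not given in the sources used here. Of 35556 probe sets 21789 had 1 gene symbol, 1621 had several and 12146 were not listed. Symbols were updated through RefSeq gene numbers (21698 matched). Probe sets that reached an array's 40th percentile on 3 or more arrays were kept, and the brightest of each gene was used, which left 14489 genes. Gene names come from the array's platform annotation.

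Group means of all 24 arrays were fitted with limma 3.58.1 in R 4.3.3 (variance trend, two-sided, Benjamini-Hochberg over all genes, threshold 0.05), with residual and prior degrees of freedom of 16 and 4.08. A pair's difference is ug minus 2g of 1 title number, described past 1.5-fold. Title numbers were taken to pair arrays: within the IgG arm deviations from group means correlated at 0.246 to 0.756 in all 18 pairs of arrays with equal numbers, and at 0.325 to 0.61 between ug and 2g (-0.659 to 0.548 for the 36 pairs with different numbers). No label states the pairing, and this check does not tell numbers 1 and 2 apart. For those numbers the pairing rests on the titles alone. Correlations between arrays of numbers 1 and 2 were all positive (0.15 to 0.548). The 2g array of number 1 correlated at 0.479 with ug of number 2 and at 0.328 with ug of its own number. The 2g array of number 2 correlated at 0.15 with ug of number 1 and at 0.325 with ug of its own number. Named genes were the 10 in each direction with the smallest p among genes without overlap (no gene was called), the 5 largest excesses and deficits of each pair, the 5 in each direction where pair 2 most opposed the others, Gja1, up to 6 genes of each list described and 5 in each direction of the interaction. The 37 gene lists come from textbook knowledge. Members, lists and tests were chosen with earlier results of these data known. The code was tested on simulated data.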

Additional observations from a re-analysis of the deposited data

Results flagged for a closer look

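For 8 of the 259 named genes all 3 IgG pairs differed between ug and 2g in 1 direction and all 3 E2 pairs in the other. Of the 14489 genes tested, 274 did so (1.89%). Fgf4, Olfr1510, Zfp458 and Gm5464 had been named for a small p of the interaction, so their opposite directions follow in part from that choice. The mean difference in the IgG arm minus that in the E2 arm was -0.373 for Fgf4, -0.586 for Olfr1510 and -0.186 for Cebpa. It was 0.642 for Zfp458, 0.463 for Gm5464, 0.242 for Fabp4, 0.194 for Pmaip1 and 0.165 for Tyms. The interaction was called for none of the 8 (limma adjusted p = 1 for each, unadjusted p between 0.00267 and 0.424).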

How the results depend on the processing

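The count of genes called between ug and 2g was 0 under every alternative planned: the replicate block within arm, the number as a replicate block over both arms, only the arrays compared with and without the block, quantile normalization, no filter on dim probe sets, the mean of a gene's probe sets, no variance trend, and leaving out each pair or each array. The interaction with the antibody was called for 0 genes in all of these too. Unadjusted counts for ug against 2g ran from 62 without pair 1 to 378 with only the 6 arrays and the replicate block. Without pair 2 and with the replicate block, an alternative chosen after seeing the data, 2 genes were called, Gem (3.02) and Txnip (-0.65). In both genes the pair left out was the one that had opposed the others. At a 2-fold threshold pairs 1, 2 and 3 had 4, 4 and 15 genes, and with no filter on dim probe sets pair 3 had 104 and 1175 genes did not overlap (599 higher, 576 lower). Only 2 genes were picked in the E2 arm at 2-fold, with medians of 1.35, -1.82 and 2.69 in IgG pairs 1, 2 and 3. Of 259 named genes, 0 had another sign under the alternatives that keep all arrays. Under 1 or more of those that leave arrays out, 125 did. The replicate blocks, the fits of only the arrays compared and the variance trend cannot change a difference in this balanced design. Among alternatives that keep all arrays, only quantile normalization, the filter and the mean of probe sets could therefore turn a sign.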

Other observations

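Numbered zinc finger genes, most of them coding for transcriptional repressors, differed by pair. Of 264, 194 were higher at ug in pair 1 (median 0.08), 196 in pair 2 (median 0.09) and 81 in pair 3 (median -0.06), and by the mean of the E2 pairs 83 were. Without pair 2, 142 were higher (median 0.01). Zfp942 was 7.37, 6.83 and 6.55 at ug against 6.58, 6.14 and 6.56 at 2g. These genes did not share the opposed pair 2 of the early genes. Olfactory receptor genes, dim on these arrays (median level 6.22), were higher at ug in 26, 46 and 63 of 99 in pairs 1, 2 and 3, and in 41 without pair 2 (median -0.03). Both lists were added after the data were seen.

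Against the incubator of the same number, 302 genes differed by 1.5-fold or more on the array labelled 2g of number 2, and 46 and 8 on those of numbers 1 and 3. Of the 302, 248 were lower at 2g. For the ug arrays of numbers 1, 2 and 3 the counts were 25, 65 and 67. The 1g arrays differed from their incubators in 60, 99 and 27 genes. Against the 1g array of the same number, the 2g arrays of numbers 1, 2 and 3 differed in 25, 25 and 14 genes. The counts thus depend on the array taken as reference.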
